A study of Rattus norvegicus with 6 samples.

Results

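Glutathione synthesis and recycling, glutathione transfer, quinone reduction and heme breakdown were examined in rat aorta through 10 genes: Gclc, Gclm, Gss, Gsr, Gstm1, Gstm2, Gstp1, Nqo1, Hmox1 and Hmox2. They were taken by name from the platform annotation, which gives symbols of 4736 genes on the array, and every probe set with one of these names as its only symbol was used, 22 in all. A probe set is a group of short probes along one transcript whose signals are combined into a single intensity. The samples were aortae of spontaneously hypertensive rats (SHR), an inbred strain with inherited high blood pressure. Runners had 5 weeks of voluntary exercise in wheel cages, and non-runners, of the same strain, did not run. Each group had 3 arrays, named A, B and C, and each array held RNA pooled from 3 aortae. The labels give neither age nor sex, and nothing says how rats were assigned to pools, so p-values measure the spread between these pools, which may be partly technical.

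Glutathione is a small thiol that cells use to neutralise peroxides and to tag reactive compounds for export. The transcription factor Nrf2, encoded by Nfe2l2, is held back by Keap1 and released by oxidants and electrophiles. It then binds antioxidant response elements near genes for glutathione synthesis, glutathione transferases, Nqo1 and Hmox1. In the vessel wall these enzymes limit oxidative damage, and heme oxygenase also releases carbon monoxide, a relaxant of smooth muscle, and biliverdin, the precursor of the antioxidant bilirubin.

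The response element core was searched for in the promoter windows of the members, to show where the sequence that Nrf2 binds lies close to a gene start. Windows ran from 250 bases before to 50 bases after the start, in the RefSeq table of the rat assembly GRCr8, and 8 members had 1 or more windows, 9 in total. Gsr and Hmox1 had no window in the table and were not searched. The core TGACNNNGC, on either strand, occurred in 3 of the 9 windows and in 12.1% of all 33469 windows of the table. The matches are shown with the core or its reverse complement in capitals and 15 bases on each side, read along the gene.

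Gstp1: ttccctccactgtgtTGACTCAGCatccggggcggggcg
Gclm: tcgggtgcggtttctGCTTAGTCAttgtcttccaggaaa
Hmox2: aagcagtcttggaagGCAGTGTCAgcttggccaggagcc

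The Gstp1 stretch lies at chr1:210769743-210769781 on the minus strand, with the core 61 to 53 bases before the start on the gene's own strand. That match also contains the AP-1 site TGACTCA, which 4.63% of all windows hold. The Gclm stretch lies at chr2:213031948-213031986 on the plus strand, with the core on the opposite strand 172 to 164 bases before the start. The Hmox2 stretch lies at chr10:11337684-11337722 on the minus strand, with the core on the opposite strand 95 to 87 bases before the start, in 1 of the 2 windows of that gene. These are matches of letters, and binding was not measured. Sequence outside the windows was not searched, so a window without a match does not show that a gene lacks the element.

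Of the members, no probe set passed the test between runners and non-runners. Gsr, glutathione reductase, had runner values above all non-runner values in its brightest probe set, and its other 2 probe sets, with the same order, lay below the level of the array's controls throughout. The probe sets of Gstm1, a mu-class glutathione transferase, gave opposite directions. Hmox1, Hmox2, Nqo1 and Gss, by their brighter probe sets, had differences of -0.21 to -0.04 on the log2 scale. Intensities were tested as log2(intensity + 2.4) with limma, and 15 of the 22 probe sets, of 9 genes, were bright enough on average over all arrays to be tested. At an adjusted p under 0.05 by limma, 0 of the 15 passed, beside 0.0% of the 5244 probe sets tested. At an unadjusted p under 0.05 the count was 3 of the 15, against 8.07% of all probe sets. These were Gstm1 J02810mRNA_s_at and, for the same gene Gsr, rc_AA893189_at and U73174_at, so they are not independent. U73174_at, below the level of the array's controls throughout, averaged 34.4 in runners and 17.8 in non-runners. Its runner values raised the mean over all arrays by which it was kept for testing. The adjusted p of the 15 ran from 0.577 to 0.969. The groups did not overlap for 3 of the 15 with runners higher, against 7.36% of all tested, and for 1 with runners lower, against 7.49%. Those with runners higher were the same Gsr probe sets and Gstm1 H32189_s_at. The median log2 difference of the 15 was 0.20 and that of all tested probe sets -0.005, and 10 of the 15 lay above 0, against 49.2% of all. Without non-runner B, an array described next, the median was 0.07 and 8 of the 15 lay above 0.

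One array stood apart. The ratio of the 3' to the 5' beta-actin control, which grows when signal from the 5' end of transcripts is lost, was 2.14 on non-runner B, 1.67 on non-runner C, 1.28 on non-runner A and 1.22 to 1.43 on the runner arrays. Non-runner B was also the array on which 8 of the 15 tested members had their lowest intensity, against 27.7% of all tested probe sets. It was the highest array for 2 of the 15, against 30.5% of all tested probe sets. With every value taken as its deviation from the probe set's mean on the log2 scale, the 15 averaged -0.46 on non-runner B, 0.03 to 0.09 on the other non-runner arrays and 0.06 to 0.15 on the runner arrays. Over all tested probe sets the same average was -0.01 on non-runner B, but normalization between arrays holds that average near 0 on every array. With the beta-actin ratio as a covariate, the median difference of the 15 was -0.09, but that ratio goes partly with the group. Each member is therefore given with all arrays and, where it matters, without non-runner B.

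**Figure D1:**
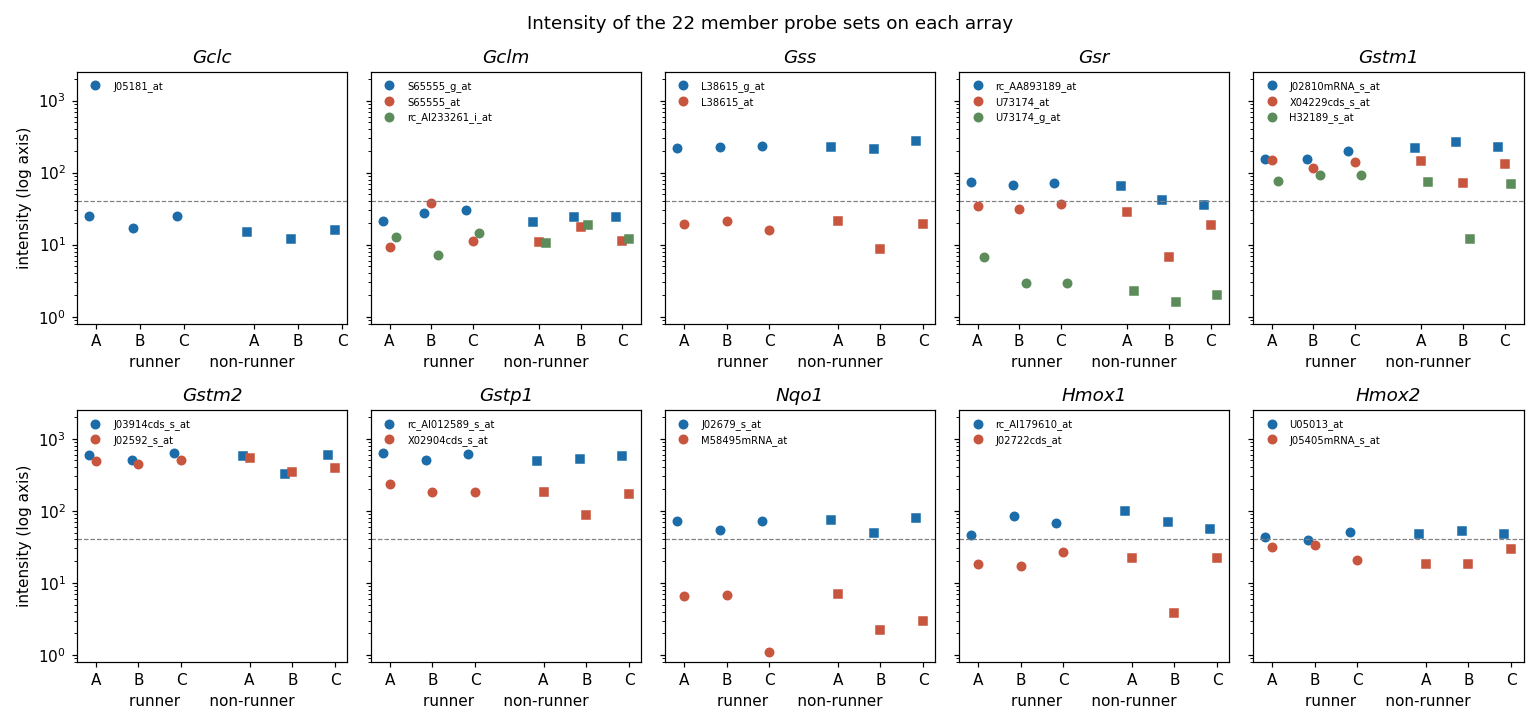
Intensity (log axis) of the 22 probe sets of the 10 genes, with runner arrays A, B and C as circles on the left of each panel and non-runner arrays as squares on the right. The dashed line is the control level of 40.8, and the lowest squares of Gstm1 H32189_s_at, Gsr U73174_at and Hmox1 J02722cds_at belong to non-runner B.

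To judge which members gave a usable signal, a control level of 40.8 was taken, the 95th percentile over 19 controls that probe yeast genes or the sense strand of control transcripts. All 6 arrays lay above it for 9 member probe sets, of 6 genes, and none did for 10. The 7 probe sets left out of the test measured 1.1 to 38.1. Below this level a difference is not established as signal.

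Gsr regenerates reduced glutathione from its oxidised form with NADPH. Its brightest probe set, rc_AA893189_at, measured 73.4, 67.0 and 71.1 on runner A, B and C, against 65.7, 42.0 and 35.2 on non-runner A, B and C. The runner values lay close together and all above the non-runner values, of which A was nearest to them. The log2 difference was 0.56 ± 0.21 (SE), with a 95% interval of 0.06 to 1.05 (limma, unadjusted p = 0.0313, adjusted p = 0.585). It ranged from 0.39 to 0.78 as arrays were dropped one by one, lowest without non-runner C. Probe set U73174_at measured 34.7, 31.7 and 36.7 on the runner arrays, against 28.0, 6.8 and 18.7 on the non-runner arrays. All of these lie below the control level, and non-runner B was far below the rest. The difference was 0.97 ± 0.37 (SE; limma adjusted p = 0.585), and 0.51 ± 0.17 without non-runner B. The remaining probe set, U73174_g_at, was not tested at 6.8, 2.9 and 2.9 in runners, against 2.3, 1.6 and 2.0 in non-runners. With the beta-actin ratio as a covariate the tested pair of probe sets differed by 0.32 and 0.29, at limma adjusted p = 0.961 for both.

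Glutathione itself is made in 2 steps. Gclc and Gclm are the catalytic and modifier subunits of glutamate-cysteine ligase, the rate-limiting enzyme, and Gss, glutathione synthetase, adds glycine. Gclc had a single probe set, which measured 25.2, 17.1 and 24.6 on the runner arrays, against 15.2, 11.9 and 16.2 on the non-runner arrays. The groups did not overlap, but every value lay below the control level and the probe set was too dim to be tested. Gclm had 3 probe sets, all below the control level on every array. The tested one, S65555_g_at, measured 21.3, 27.1 and 30 in runners, against 20.7, 24.0 and 24.0 in non-runners, and the groups overlapped (log2 difference 0.12 ± 0.16 SE, limma adjusted p = 0.855). The difference ran from 0.02 without non-runner A to 0.21 without runner A. In S65555_at, runner B stood at 38.1 and the other arrays at 9.2 to 17.3. The remaining Gclm probe set measured 7.2 to 14.4 in runners and 10.4 to 18.8 in non-runners.

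Gss was well above the control level in 1 of its 2 probe sets. Probe set L38615_g_at measured 221.6, 228.9 and 233.5 on the runner arrays, against 225.9, 214.5 and 270.5 on the non-runner arrays. The values overlapped, and the log2 difference was -0.05 ± 0.15 (SE), with a 95% interval of -0.40 to 0.30 (limma adjusted p = 0.943). The other Gss probe set lay at 16.1 to 21.2 in runners and 8.6 to 21.1 in non-runners, lowest on non-runner B, and was not tested.

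Gstm1 and Gstm2 are mu-class and Gstp1 is a pi-class glutathione transferase, enzymes that join glutathione to reactive compounds. All 7 of their probe sets carry an s in the name, which marks probes that may match more than one transcript, so signal from closely related family members may be shared between them. The Gstm1 probe set J02810mRNA_s_at measured 152.2, 155.1 and 200.7 on the runner arrays, against 219.2, 261.6 and 224.4 on the non-runner arrays. Every runner value lay below every non-runner value, and non-runner B was the highest. The log2 difference was -0.47 ± 0.17 (SE), with a 95% interval of -0.86 to -0.09 (limma, unadjusted p = 0.0221, adjusted p = 0.577). It ran from -0.60 to -0.40 as each array was left out and was -0.41 with the beta-actin ratio as a covariate.

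The other Gstm1 probe sets pointed upward. H32189_s_at measured 75.8, 93.7 and 93.2 in runners, against 73.7, 12 and 68.6 in non-runners. Non-runner B lay far below all other arrays, and the groups were separated by little without it. The difference was 1.06 ± 0.56 (SE) with all arrays and 0.28 ± 0.14 without non-runner B (limma adjusted p = 0.658 and 0.678). X04229cds_s_at measured 148.1, 116.4 and 140.2 in runners, against 145.1, 71.2 and 130.7 in non-runners. Its groups overlapped, and the difference of 0.26 ± 0.26 (SE; limma adjusted p = 0.802) turned to -0.04 without non-runner B.

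Gstm2 gave high signals in both of its probe sets. J03914cds_s_at measured 594.5, 500.7 and 640.8 on the runner arrays, against 583.1, 324.8 and 602.0 on the non-runner arrays. J02592_s_at measured 497.7, 445.5 and 511.1 in runners, against 549.4, 344.4 and 393.2 in non-runners. Non-runner B was the lowest array in both, and the groups overlapped. The log2 differences were 0.28 ± 0.25 and 0.20 ± 0.20 (SE; limma adjusted p = 0.788 and 0.800), and -0.004 and 0.07 without non-runner B. Without non-runner A the difference of J02592_s_at was 0.39.

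Gstp1 had 2 probe sets, both above the control level on every array. rc_AI012589_s_at measured 635.7, 501.0 and 617.7 in runners, against 487.9, 526.0 and 584.1 in non-runners, with overlapping groups (log2 difference 0.13 ± 0.16 SE, limma adjusted p = 0.844). Leaving out runner C gave 0.07 and leaving out runner B gave 0.24. X02904cds_s_at measured 238.4, 182.6 and 184.4 in runners, against 183.6, 88.6 and 170.7 in non-runners. Non-runner B was near the middle of the 6 arrays in the one and far below them in the other. The difference in X02904cds_s_at was 0.50 ± 0.29 (SE; limma adjusted p = 0.694), and 0.17 without non-runner B.

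Nqo1, a quinone reductase that is widely used as a readout of Nrf2 activity, measured 71.6, 54.4 and 71.6 on the runner arrays in probe set J02679_s_at, against 75.7, 49.1 and 78.9 on the non-runner arrays. Both groups had their lowest value on the array lettered B, and they overlapped. The log2 difference was -0.04 ± 0.22 (SE), with a 95% interval of -0.55 to 0.46 (limma adjusted p = 0.969), and -0.24 without non-runner B. The other Nqo1 probe set measured at most 6.8 in runners and 6.9 in non-runners.

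Hmox1 is the inducible heme oxygenase and Hmox2 the constitutive form. Hmox1 in probe set rc_AI179610_at measured 46.7, 83.5 and 66.8 on the runner arrays, against 98.9, 69.1 and 56.1 on the non-runner arrays. The arrays of each group were spread widely and the groups overlapped. The log2 difference was -0.21 ± 0.26 (SE), with a 95% interval of -0.80 to 0.38 (limma adjusted p = 0.847), and it was -0.004 without non-runner A. Its other probe set, J02722cds_at, was not tested at 18.5, 17.1 and 26.4 in runners, against 22, 3.8 and 22.2 in non-runners, with non-runner B again apart.

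Hmox2 lay close to the control level. U05013_at measured 42.9, 39.4 and 50.5 in runners, against 47.7, 52.3 and 48.3 in non-runners. The groups overlapped and the log2 difference was -0.18 ± 0.15 (SE; limma adjusted p = 0.765). J05405mRNA_s_at measured 31.0, 33.4 and 20.8 in runners, against 18.2, 18.3 and 29.2 in non-runners, all below the control level, with a difference of 0.30 ± 0.27 (SE; limma adjusted p = 0.785). It was 0.15 without non-runner A and 0.53 without runner C. The probe sets of Hmox2 therefore differed in sign, as did those of Gstm1.

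**Figure D2:**
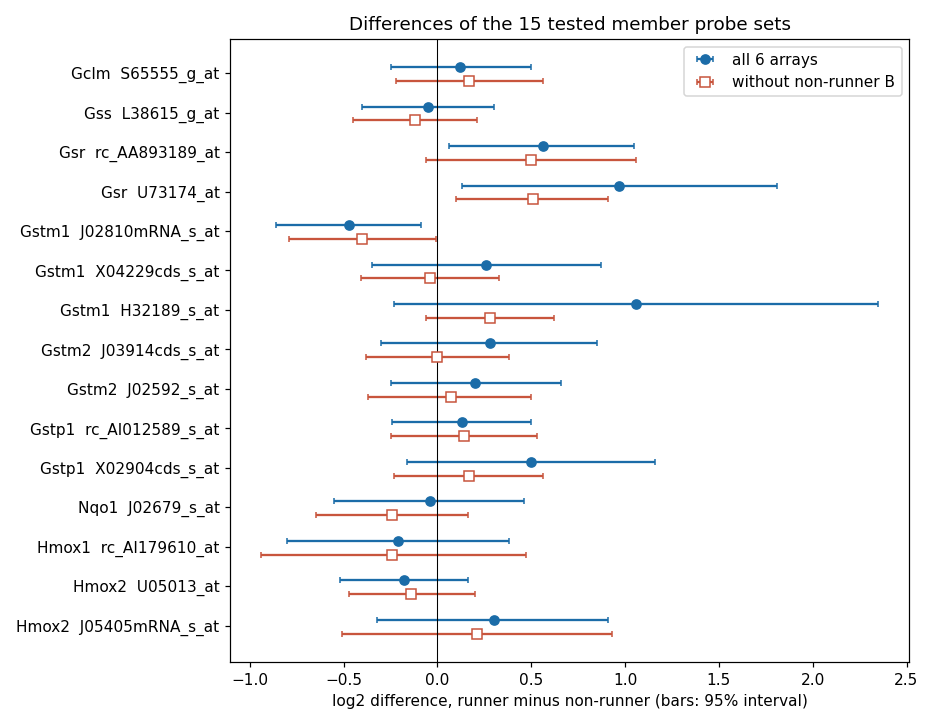
Log2 difference, runner minus non-runner, of the 15 tested probe sets with 95% intervals, from all 6 arrays (filled circles) and without non-runner B (open squares). Intervals with all arrays leave out 0 for the Gsr probe sets and for Gstm1 J02810mRNA_s_at, and the Gstm1 probe set H32189_s_at moves from 1.06 to 0.28 without that array.

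The width of the intervals sets what these arrays could resolve. The 95% intervals of the 15 tested probe sets reached 0.34 to 1.29 on the log2 scale to either side of the estimate, with a median of 0.50. These intervals are not adjusted for the 5244 tests, so passing the adjusted threshold needed a larger difference than they reach. The interval of Gsr U73174_at, 0.13 to 1.81, left out 0, yet its limma adjusted p was 0.585. A p that misses the threshold does not show equal levels.

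Across arrays, the members shared no single ordering. Of all 22 probe sets, 12 had their lowest value on non-runner B. They belong to Gclc, Gss, Gsr, Gstm1, Gstm2, Gstp1, Nqo1 and Hmox1. Non-runner B was the highest array for Gclm rc_AI233261_i_at, Gstm1 J02810mRNA_s_at and Hmox2 U05013_at. Both probe sets of Gss and both of Gstm2 were lowest on that array, while Gsr, Gstm1, Gstp1, Nqo1 and Hmox1 were split between probe sets that were lowest there and probe sets that were not.

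**Figure D3:**
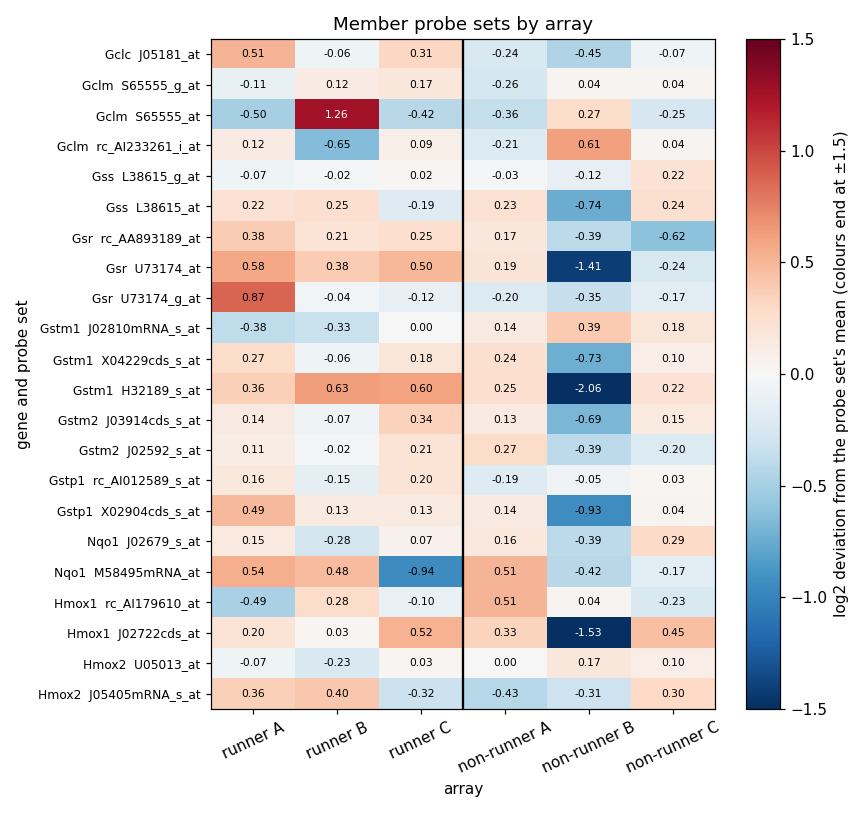
Deviation of each of the 22 probe sets from its own mean over the 6 arrays, on the log2 scale, with runner arrays left of the line and non-runner arrays right of it (colours end at ±1.5). The non-runner B column holds the deepest values, down to -2.06 for Gstm1 H32189_s_at, while Gclm rc_AI233261_i_at stands at 0.61 there.

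Other genes of the same pathways were described through 5 lists, with the brightest tested probe set standing for each gene. Of their genes, 0 passed limma's test at an adjusted p under 0.05 in either direction. Over all tested probe sets, 49.2% had a difference above 0, with a median of -0.005. Of 13 other glutathione transferases tested, 5 had a difference above 0 and 8 below 0, with a median of -0.09, and -0.15 without non-runner B. Gstt2, a theta-class transferase, measured 42.9 ± 3.76 in runners and 72.3 ± 32.2 in non-runners (n = 3 each, mean ± SD), with 108.5 on non-runner B. Gstm7, another mu-class enzyme, measured 124 ± 8.51 in runners and 82.8 ± 40 in non-runners, with 36.7 on non-runner B. Gsto1, of the omega class, averaged 192 ± 15.2 in runners and 236 ± 36.0 in non-runners, but its 2 probe sets differed in sign. Without non-runner B the log2 differences of these 3 genes were -0.33, 0.23 and -0.17.

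Of 4 further genes of glutathione synthesis, transport and recycling, 1 lay above 0 and 3 below, with a median of -0.03, and -0.12 without non-runner B. Hagh, which hydrolyses a glutathione conjugate to release glutathione, measured 59.2 ± 1.72 in runners and 60.1 ± 9.87 in non-runners. Oplah, which recycles 5-oxoproline to glutamate, and Cbs, which feeds cysteine synthesis, lay below the control level on every array.

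Of 14 genes of heme synthesis, heme breakdown and iron handling, 11 lay above 0 and 3 below, against 49.2% of all tested probe sets above 0. The median was 0.16, and 0.20 without non-runner B. The list includes Alas2, the first enzyme of heme synthesis in red cell precursors, at a log2 difference of 0.33, and the summed red cell markers, Hbb and Alas2, were 1582 to 3118 in runners and 1010 to 1433 in non-runners. Most of each sum was Hbb, and Alas2 by itself overlapped between the groups. The part of red cells in the values of this list was not tested. Urod, a decarboxylase of the heme pathway, measured 108.5, 109.1 and 109.3 on the runner arrays, against 85.4, 88.2 and 70.7 on the non-runner arrays. The groups did not overlap, and the log2 difference was 0.42 ± 0.15 (SE; limma adjusted p = 0.577). Ireb2, an iron-responsive RNA-binding protein, measured 38.0, 50.1 and 39.0 in runners, against 25.3, 22 and 22.6 in non-runners, with only runner B above the control level (0.76 ± 0.16 SE, limma adjusted p = 0.293). Cp, ceruloplasmin, a ferroxidase, measured 73.3 ± 10.9 in runners and 94.0 ± 18.2 in non-runners (n = 3 each, mean ± SD), a direction that 2 of its 3 probe sets shared.

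The regulators were thinly covered, with 3 tested genes, 1 above 0 and 2 below. Nfe2l2, Nrf2 itself, measured 70.4, 80.1 and 58.0 on the runner arrays, against 57.8, 126.1 and 82.4 on the non-runner arrays. The groups overlapped, non-runner B was the highest array, and the log2 difference of -0.30 ± 0.28 (SE; limma adjusted p = 0.795) was -0.02 without it. Mafk, a small Maf protein that pairs with Nrf2, measured 215 ± 16.3 in runners and 194 ± 16.8 in non-runners. Maf, a large Maf protein, averaged 172 ± 42.8 in runners and 206 ± 29.1 in non-runners, but its 2 tested probe sets differed in sign. The list median was -0.28, and -0.02 without non-runner B. Keap1 and Bach1, repressors of this pathway, had no probe set with their symbol alone in the annotation used and were not analysed here.

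Of 18 other Nrf2 targets and suppliers of NADPH, 11 lay above 0 and 7 below, with a median of 0.12 both with and without non-runner B. Me1, malic enzyme, measured 959.7, 948.4 and 983.3 on the runner arrays in its brightest probe set, against 491.7, 257.8 and 530.5 on the non-runner arrays, and all 5 of its probe sets had a difference above 0. The log2 difference was 1.26 ± 0.26 (SE; limma adjusted p = 0.293), and 0.93 without non-runner B. Tkt, transketolase of the pentose phosphate pathway, measured 731 ± 67.3 in runners and 523 ± 145 in non-runners (n = 3 each, mean ± SD), with a difference of 0.54 that was 0.30 without non-runner B. Slc6a9, a glycine transporter, measured 92.3 ± 9.69 in runners and 144 ± 37.5 in non-runners, with a log2 difference of -0.60 ± 0.21 (SE; limma adjusted p = 0.585).

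**Figure D4:**
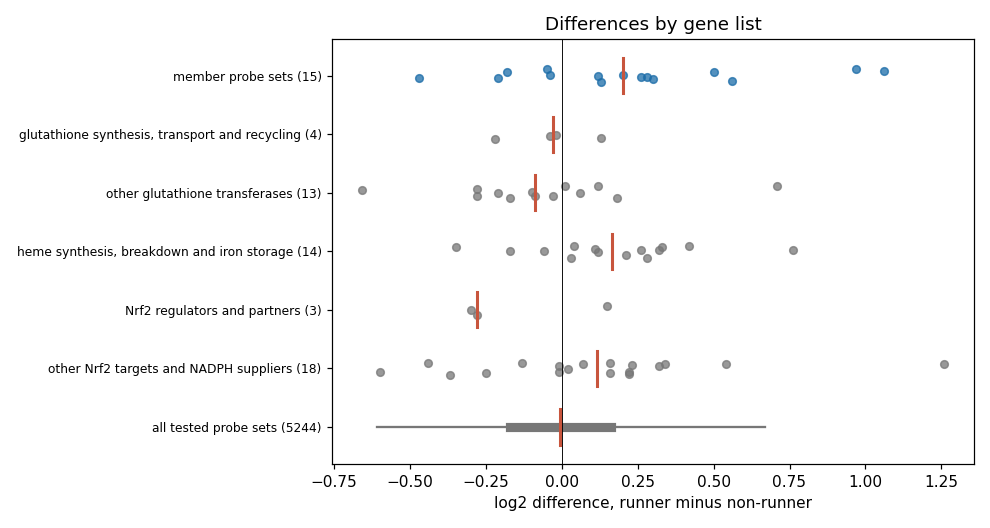
Log2 difference, runner minus non-runner, of the 15 tested member probe sets and of 1 probe set per gene in each other list (points), with medians as red lines. The bottom row gives all 5244 tested probe sets, whose middle 50% (thick bar) lay between -0.17 and 0.16 and middle 95% (thin line) between -0.61 and 0.67.

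The tissue was checked by marker genes, in summed intensity over the markers of each cell type. All 5 smooth muscle markers on the array, among them Acta2 and Myh11, were above the control level on every array, at sums of 11453 to 12450 in runners and 11673 to 13674 in non-runners. Of 4 endothelial markers, Pecam1 and Nos3 were above it on every array and Vwf and Kdr on none. The endothelial sums were 249 to 289 in runners and 167 to 316 in non-runners, lowest on non-runner B. In their brightest probe sets Pecam1 and Nos3 went opposite ways, at log2 differences of 0.45 and -0.51 (limma adjusted p = 0.726 and 0.595). Without non-runner B these were 0.12 and -0.66. Probe sets of Nos3 also differed in sign, at 0.395 in AF110508_at and -0.676 in AJ011116_at. Of 4 macrophage markers, Cd14 and Lyz2 were above the control level on every array and Csf1r and Itgam on none, with sums of 761 to 995 in runners and 728 to 904 in non-runners. Fat markers were bright, 4 of 5 above it on every array, including Ucp1 of brown fat, and Plin1 on none, with sums of 2631 to 3495 in runners and 2285 to 3469 in non-runners, lowest on non-runner B. Among them Fabp4, a fatty acid binding protein, measured 628.1 to 753.9 in runners and 403.6 to 532.5 in non-runners, which did not overlap. Its log2 difference was 0.51 (limma adjusted p = 0.533), and 0.39 without non-runner B. Ucp1, Cidea, Lep and Plin1 did not follow it: their groups overlapped, at log2 differences of -0.02, -0.23, -0.05 and 0.12. Both red cell markers, Hbb and Alas2, were above the control level on every array. Their sums, 1582 to 3118 in runners and 1010 to 1433 in non-runners, did not overlap, but most of each sum was Hbb. Hbb measured 1445.7 to 2910.5 in runners and 888.7 to 1310.7 in non-runners. Alas2 overlapped, at 108.8 to 207.5 in runners and 114.4 to 121.9 in non-runners. Of the liver markers, Alb was above the control level on 5 arrays and Ttr and Apoa1 on none. Their sums, 78 to 85 in runners and 88 to 112 in non-runners, did not overlap, although the groups overlapped for each marker by itself. Skeletal muscle markers summed to 138 to 293 in runners and 200 to 368 in non-runners. In such pooled tissue, fewer cells of a type and less RNA per cell cannot be told apart, and the part of these cell types in the values of the members was not tested.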

How the data were processed

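The authors deposited 1 intensity per probe set and array on a linear scale, per the series' value table, for 8799 probe sets on 6 arrays. No source used here names the software that made them, and no detection calls were used. With 2% trimmed at either end, array means were 100.14 to 100.15, and array medians were 28.5 to 32.2. An intensity has no read depth, so the number of arrays limits the precision. Symbols came from the platform annotation, and the identifiers of all 10 members were found in the gene table of GRCr8.

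Each intensity was raised by 2.4, the 10th percentile of positive values, as a pseudocount, put on the log2 scale and quantile normalized between arrays. Differences on this scale understate changes of dim genes. Left out were 59 controls and, by mean over all arrays, the dimmest 40% of what remained. The remaining 5244 were fitted with limma 3.58.1 (lmFit and eBayes, two-sided) in R 4.3.3 with Benjamini-Hochberg adjustment over all of them and a threshold of 0.05. The fit was also run on simulated data with independent noise, without an outlying array, so that run cannot show how the fit behaves with non-runner B. Overlap of groups was judged on deposited intensities. Named genes were all members, the 3 genes with the smallest p of each other list, Nfe2l2, and cell type markers. The rule also held Keap1 and Bach1, which had no probe set under it. The members and lists were chosen with earlier results of these data known. Figures were drawn with matplotlib 3.10.9.

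The labels give chips of both groups the letters A, B and C without saying that a letter links pools. Correlations of deviations were -0.085, -0.041 and -0.051 between chips of the same letter, and -0.012 to 0.066 between chips of different letters. The letters were therefore not taken as pairs. The skeletal muscle markers Acta1, Myh4, Tnnt3 and Ckm were nevertheless each highest on chip C within both groups.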

Additional observations from a re-analysis of the deposited data

How the results depend on the processing

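Among the members, 0 probe sets passed limma's threshold under any of the 16 alternatives tried (other pseudocounts, scalings, filters and variance models, a replicate block, a covariate, array weights, and each array left out), and 0 to 4 of the 15 had an unadjusted p under 0.05. Their smallest adjusted p ran from 0.334 to 0.89. The median difference of 0.20 moved to -0.09 with the beta-actin ratio as a covariate and kept its sign elsewhere, at 0.07 to 0.24 as arrays were left out. With a replicate block on the chip letter it was 0.20 and 0 probe sets were called. Of 236 values of single members, 9 turned sign. With the covariate these were Gstm1 X04229cds_s_at (-0.18), Gstm2 J03914cds_s_at (-0.11) and Gstm2 J02592_s_at (-0.10). As arrays were left out, Gstm1 X04229cds_s_at ranged from -0.04 to 0.45, Gstm2 J03914cds_s_at from -0.004 to 0.41, Nqo1 J02679_s_at from -0.24 to 0.09 and Gss L38615_g_at from -0.12 to 0.04. The cause was not tested. Over all probe sets, array weights called 1, which has no single symbol, and leaving out arrays called 0 to 4. These were Plpp2 and Pdlim2 without non-runner A, and Rbfox2, Erbb2 and 2 without a single symbol without non-runner C, named after their values were seen. Between 55.3% and 57.4% of probe sets per array lay below the control level, as did 10 of the 22 member probe sets throughout.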

Other observations

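The probe sets that were lowest on non-runner B differed by the kind of sequence their name refers to, a grouping chosen after the values were seen. All 4 member probe sets with cds in the name, those of Gstm1, Gstm2, Gstp1 and Hmox1, had their lowest intensity on that array, and 0 of the 4 with the prefix rc_, those of Gclm, Gsr, Gstp1 and Hmox1, did. These counts include Hmox1 J02722cds_at and Gclm rc_AI233261_i_at, which were too dim to be tested. Over all tested probe sets, 49.3% of 353 with cds in the name were lowest on non-runner B, against 17.6% of 2184 with the prefix rc_ and 33.1% of the 2707 others. Their mean log2 deviation on that array was -0.27 for cds, 0.12 for rc_ and -0.08 for the others. The median log2 difference between runners and non-runners was 0.09 for cds, -0.04 for rc_ and 0.02 for the others. For Gstp1 the log2 differences were 0.50 in the cds probe set and 0.13 in the rc_ probe set, and 0.17 and 0.14 without non-runner B. The beta-actin ratio was highest on non-runner B and C, so the covariate fit cannot separate RNA quality from the group. The part of RNA quality in these values was not tested.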
